A study of Solanum lycopersicum with 2 samples.

Results

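The peaks described here are those that DNA affinity purification sequencing (DAP-seq) of SlWUS, the tomato WUSCHEL protein, gave on chromosome 9. They were chosen by position alone, as every peak of the list whose sequence name is chromosome 9 of the SL4.0 build. There were 5471 of them, out of 65452 peaks in all, and the other 11 numbered chromosomes held 59975. The list came from 1 library of genomic DNA of the tomato cultivar Ailsa Craig (Solanum lycopersicum), titled for WUSCHEL, with 1 library titled as its input. Both libraries carry the same further labels, which name the flower abscission zone and Halo, also the name of a protein tag, and state greenhouse growth with a daily light and dark period. No genotype, treatment or age separates them. Neither has a replicate, so no value below has an error between samples and no test between samples was possible. The 11 other chromosomes of the same library show how far values spread from chromosome to chromosome, and 95% intervals cover counting error only.

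WUSCHEL is a homeodomain transcription factor that keeps the stem cells of plant meristems undifferentiated, and in Arabidopsis the secreted peptide CLAVATA3 limits its expression in a feedback loop. The series title places the tomato counterparts of both in flower abscission under low light. In DAP-seq a tagged protein is mixed with naked, fragmented genomic DNA, and the fragments it retains are sequenced. A peak is therefore a stretch that the protein can hold outside the cell, without the chromatin that covers it in a plant. Tomato chromosomes carry gene-rich euchromatin towards their ends and long repeat-rich heterochromatin around the centromere.

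Chromosome 9 was among the chromosomes with the fewest SlWUS peaks for their length. It carried 79.9 peaks per Mb (exact Poisson 95% interval 77.8 to 82.1) over a span of 68.5 Mb, against 85.2 per Mb over the other 11 together. Only chromosome 12 was lower, at 76.6 per Mb (74.5 to 78.7), and chromosome 10 was next above, at 79.9 (77.8 to 82.1), with an interval that covers nearly the same range. Chromosome 6 was the highest, at 95.03 (92.3 to 97.9). Peak intervals covered 2.98% of chromosome 9, against 2.81% to 3.59% of the others. Counting intervals are narrower than the true uncertainty, because peaks cluster: counts in the 68 full 1 Mb windows of chromosome 9 had a variance of 19.3 times their mean, against 12.7 to 20.1 times on the others.

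An ordinary peak of chromosome 9 was as strong as one elsewhere. The fold enrichment, the authors' ratio of fragments at the summit to local background, had a median of 4.33 on chromosome 9 (quartiles 3.38 and 6.17), and the medians of the other chromosomes ran from 4.29 to 4.38. The median pileup, the number of fragments over the summit, was 30 on chromosome 9 and 29 or 30 on the others. The median background, the number of fragments expected at the summit, was 6.11 on chromosome 9 and 6.07 to 6.16 on the others. Peaks were a median of 315 bp wide on chromosome 9 and 309 to 315 bp on the others. Of the chromosome 9 peaks, 510 passed 10-fold, which is 9.32% (exact binomial 95% interval 8.56 to 10.1), against 9.23% of all peaks in the list. Wide peaks of at least 800 bp numbered 207, or 3.78%, against 3.74% of all peaks. Shares this close to those of the list say nothing about chromosome 9 itself.

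What varied was the position of peaks along chromosome 9: the ends were crowded and the middle was sparse. Distal zones were taken as 10% of the span at either end, and on chromosome 9 they carried 1893 peaks, or 138 per Mb. The central zone, from 30% to 70%, carried 1560 peaks, or 57.0 per Mb. Distal DNA was thus 2.43 times as dense in peaks as central DNA (95% counting interval 2.27 to 2.60), and the other 11 chromosomes had ratios of 1.15 to 2.43 with a median of 1.97. Chromosomes 9 and 11 cannot be ordered by this ratio, since the interval of chromosome 11 was 2.25 to 2.62. The contrast had been seen in these data before chromosome 9 was singled out, so its place among the chromosomes is given as a description.

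**Figure D1:**
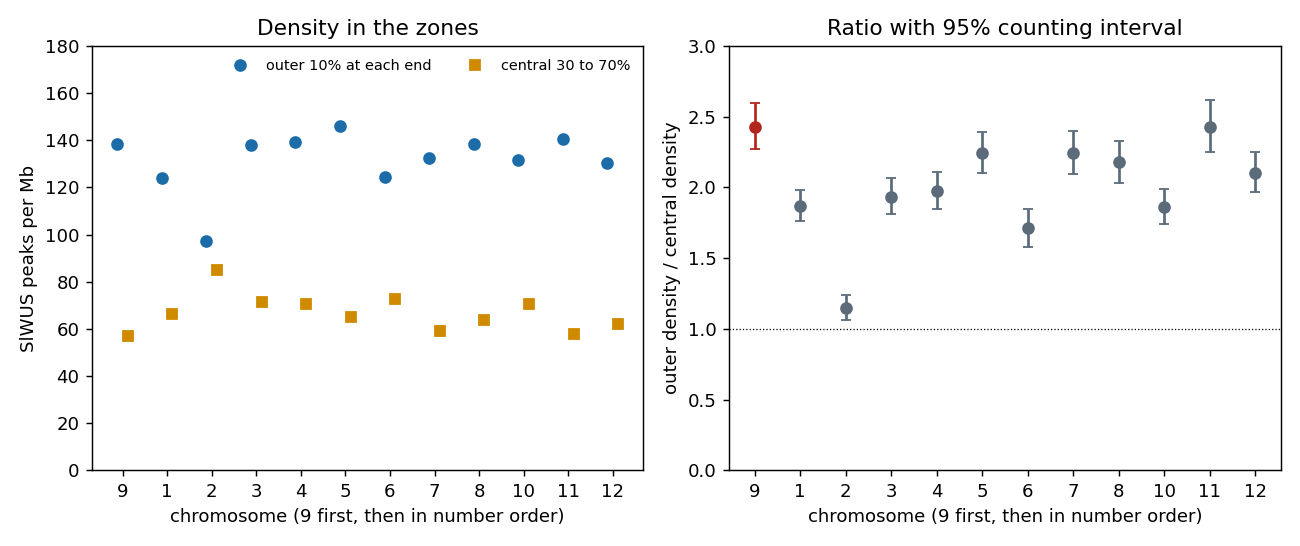
Left, SlWUS peaks per Mb in the distal zones (circles) and in the central zone (squares) for each chromosome, with chromosome 9 first. Right, the ratio of the first to the second, with bars for the 95% counting interval: chromosome 9 lies at 2.43, beside chromosome 11, and chromosome 2 is the lowest at 1.15.

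Against the other chromosomes, the centre of chromosome 9 stood further from the median than its ends did. At 57.0 peaks per Mb, the central zone of chromosome 9 was the sparsest of the 12, just under chromosome 11 with 57.9, and the median of the other chromosomes was 66.2. The distal zones of chromosome 9, at 138 per Mb, ranked only 5 of 12, against a median of 133 on the others and a highest value of 146 on chromosome 5. The ends were not alike. The right distal zone, from 61614728 to the end of the last peak at 68460808, had 152 peaks per Mb (143 to 162), second to chromosome 8 with 155. The left distal zone, up to 6846080, had 124 per Mb (116 to 133), and 6 other chromosomes were denser there. The intervals of the 2 ends do not meet.

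Between ends and centre the left flank was denser than on most chromosomes and the right flank sparser. From 10% to 30% of the span chromosome 9 had 71.7 peaks per Mb, against 49.3 to 77.2 on the others (median 57.9). From 70% to 90% it had 75.7, against 58.5 to 142 on the others (median 104). In steps of 10% of the span, the step from 20% to 30% had 71.4 peaks per Mb on chromosome 9, and the highest of the other 11 had 63.1. The steps that begin at 30%, 50%, 60% and 70%, with 47.9, 55.2, 61.6 and 61.8 per Mb, each ranked 11 of 12. From 80% to 90% chromosome 9 had 89.5 peaks per Mb, against a median of 123 on the others, so its high density at the right end began late.

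**Figure D2:**
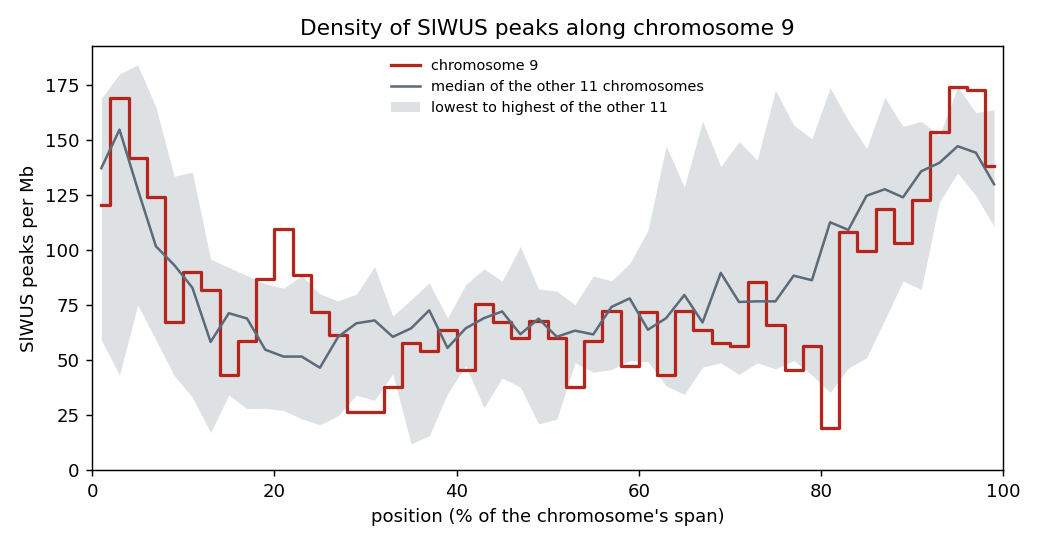
SlWUS peaks per Mb in 50 equal bins along the span of chromosome 9 (stepped line), with the median (line) and the lowest to highest value (band) of the other 11 chromosomes. Chromosome 9 is high at both ends, shows a hump near 20% of the span, and dips near 30% and 80%.

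Single megabases show how abruptly the density changed. The 5 megabases at the left end, from 1 to 5000000, held 123, 132, 170, 151 and 140 peaks. The megabase from 5000001 to 6000000 held 92, and the one from 6000001 to 7000000 held 67. At the right end, the 6 megabases from 62000001 to 68000000 held 124, 159, 159, 178, 173 and 144 peaks, together 937, which is 17.1% of the peaks of chromosome 9. The window from 65000001 to 66000000, with 178 peaks, was the fullest of chromosome 9 and ranked 6 among the 766 full windows of all 12 chromosomes. Inside the chromosome there were smaller humps, with 120 peaks from 14000001 to 15000000 and with 96 and 107 peaks in the 2 megabases from 49000001 to 51000000. The 2 megabases directly after, up to 53000000, held 32 peaks each.

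The sparsest megabase, from 55000001 to 56000000, held 20 peaks, and the next, from 19000001 to 20000000, held 22. Counted from the sparsest of the 766 windows, they ranked 5 and 7. The low stretch at 19000001 went on to 24000000: its 5 megabases held 22, 34, 31, 36 and 38 peaks, together 161, or 32.2 per Mb (27.4 to 37.6). No run of 5 windows of this grid on another chromosome held as few, and the lowest of each ran from 177 on chromosome 11 to 264 on chromosomes 3 and 6. Fewer than 40 peaks were found in 10 of 68 windows of chromosome 9, which is 14.7%, against 6.73% of the 698 windows of the others. Chromosomes 1 and 11 came nearest, at 12.2% and 11.1%. At the other extreme, 6 windows of chromosome 9 held 150 peaks or more, which is 8.82%, against 7.02% of the windows of the others. Chromosomes 4, 5 and 6 had larger shares, of 9.38%, 9.23% and 10.6%.

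Peaks listed in the sparse stretch had a higher median fold than those in the dense one. From 19000001 to 24000000 the median fold was 5.21, the median background 5.68 and the strongest peak 39.4-fold, while 17 of 161 peaks passed 10-fold, or 10.6%. In the dense stretch from 62000001 to 68000000 the median fold was 4.09, the median background 6.43, the strongest peak 45.5-fold, and 71 of 937 peaks, 7.58%, passed 10-fold. Across the 68 windows of chromosome 9, the number of peaks and the median log2 fold had r = -0.38 (Spearman's rho = -0.34), and the number of peaks and the median background had r = 0.61 (rho = 0.56). Other chromosomes had r of -0.57 to -0.13 for fold and 0.48 to 0.76 for background. All windows come from 1 library, neighbouring windows are not independent, and background is the divisor of the fold, so these are descriptions only. The part of background, and of the sequence where reads can be placed, in the number of peaks was not tested.

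The difference between zones in median fold was small on chromosome 9. Distal peaks had a median fold of 4.14 and central peaks of 4.45, a log2 difference of -0.10, and the other chromosomes had differences of -0.14 to 0.01. Both zones had a median pileup of 30 fragments, while the median background was 6.40 fragments for distal peaks and 5.98 for central ones. The lowest background in the list, 4.08 fragments, stood behind 2.11% of the distal peaks of chromosome 9 and 9.17% of the central ones. Over all its peaks the share was 7.53%, against 7.58% over the 12 chromosomes. Distal peaks were a median of 326 bp wide and central ones 305 bp. A peak over a higher background needs more fragments to be listed, so these values describe the listed peaks and not the zones.

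The ratio of distal to central density on chromosome 9 was, among 7 classes of fold, highest for the weakest peaks and lowest between 9.64-fold and 13.3-fold. For the weakest peaks, up to 3.38-fold (the lowest 25% of the list), there were 522 distal and 370 central peaks, and the ratio of their densities was 2.82. It was 2.72 for peaks from there to 4.33-fold, 2.28 up to 6.15-fold, 2.05 up to 9.64-fold, 1.75 up to 13.3-fold and 1.94 up to 27.3-fold. The median ratio of the other chromosomes was likewise highest for the weakest peaks, at 2.36, with a range of 1.103 to 3.005. From 13.3-fold to 27.3-fold that median was 1.52. By these medians, a higher ratio for weak peaks was not particular to chromosome 9. The strongest 1% of the list, above 27.3-fold, held 63 peaks of chromosome 9. Of these, 17 were distal and 17 central, a ratio of 2. On the other chromosomes this ratio ran from 0.483 to 1.66, with a median of 0.897. The counts behind it are small: 17 of 63 is 27.0% distal (exact binomial 95% interval 16.6 to 39.7), against 20.4% over the 592 such peaks of the other chromosomes, a share that lies within this interval. Central peaks were likewise 17 of 63, against 266 of 592 on the others, a share above this interval. On chromosomes 2, 5, 6 and 10 they were 17 of 49, 14 of 45, 14 of 39 and 19 of 48, shares within it. The other 29 of the 63 peaks of chromosome 9 lay between the zones.

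The strongest peaks split by size. Of the 49 peaks of chromosome 9 above 27.3-fold and up to 50-fold, 16 were distal and 9 central, against 105 distal and 181 central of 441 on the others. The distal share was 32.7% (19.9 to 47.5), an interval that includes the 23.8% of the others. The central share, 9 of 49 against 181 of 441, was lower on chromosome 9, and no interval was computed for it. Above 50-fold, chromosome 9 held 14 peaks, or 0.256% of its peaks (0.140 to 0.429), against 0.252% of all peaks in the list. Of these 14, 1 was distal, 8 were central and 5 lay between the zones. That is 7.14% distal (0.181 to 33.9), against 10.6% on the others, where 16 of 151 were distal and 85 central, so the central lean of these peaks was not set apart from that elsewhere. The single distal one, from 2971338 to 2971830, was 72.3-fold. Above 20-fold there were 112 peaks, or 2.05%, against 1.99% of all peaks, and above 100-fold there were 3, or 0.0548%, against 0.0535%. In number, strong peaks on chromosome 9 were thus near the background of the list.

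**Figure D3:**
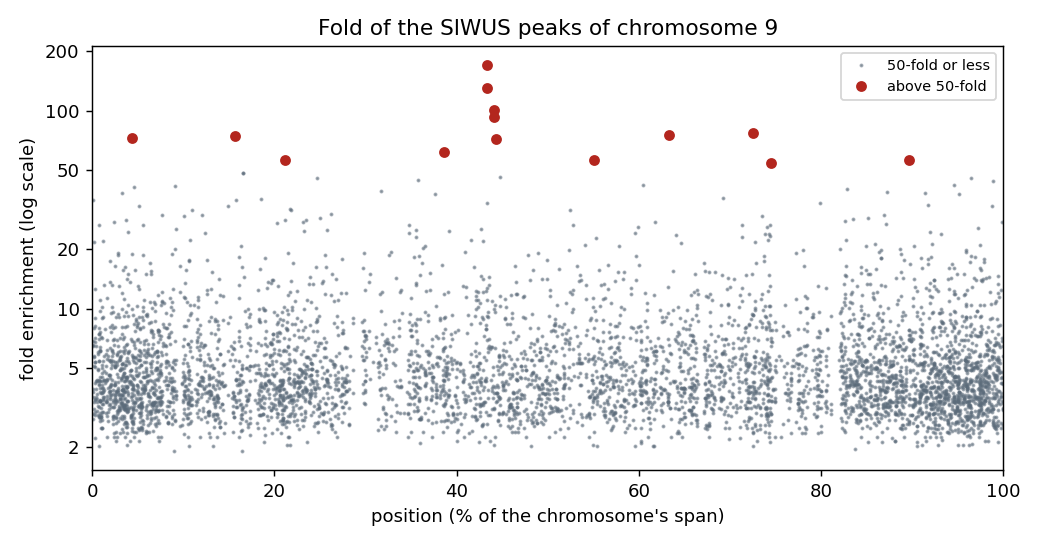
Fold enrichment (log scale) of the 5471 SlWUS peaks of chromosome 9 against position along its span, with the 14 peaks above 50-fold as larger points. Of these 14, 5 stand close together near 44% of the span and the other 9 are spread out.

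The 2 strongest peaks of chromosome 9 were near neighbours, at 43.4% of its span. The stronger ran from 29682396 to 29682982, with its summit at 29682707 and 1352 fragments (95% counting interval 1281 to 1426) over a background of 6.98. Its fold was 169 (161 to 179), rank 3 in the whole list. The other ran from 29686614 to 29687169, with its summit at 29686905 and 929 fragments (870.2 to 990.7) over a background of 6.11. Its fold was 131 (123 to 139), rank 10 in the list. The intervals do not meet, and they take the background as exact. The summits were 4198 bp apart and the intervals left 3631 bp between them. Together the pair held 1.03% of all summit fragments of chromosome 9. The 2 strongest peaks of the other chromosomes held from 0.615%, on chromosome 8, to 1.15%, on chromosome 12. The pair was chosen for its strength from earlier results of these data, so its rank is a description.

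No other chromosome had its 2 strongest peaks so close together. Elsewhere they were between 392003 bp apart, on chromosome 4, and 39375198 bp apart, on chromosome 11. A peak above 50-fold lay 5069 bp from the strongest peak of chromosome 10, which was the only other case within 10 kb of a chromosome's strongest peak. Among all peaks above 50-fold, chromosomes 1, 8, 9 and 10 each had 1 neighbouring pair within 10 kb, and the others had none.

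More peaks accompanied the pair, and within 50 kb all of them lay to its right or between its members. Between the summits were a 9.15-fold peak from 29683343 to 29683713, with 62 fragments, and a 2.63-fold peak from 29686154 to 29686380, with 20. A 34.0-fold peak from 29687468 to 29687912, with 218 fragments, followed 777 bp after the second summit, and a 12.7-fold peak from 29689837 to 29690245, with 95 fragments, came after it. Thus 6 peaks, 4 of them above 10-fold, lay within 10 kb of the middle of the pair. Fragments reaching from the strong summits into peaks less than a kilobase away may be counted under both, and their part in the smaller peaks was not tested. The next peaks to the right were 6.99-fold from 29697301, 11.03-fold from 29702853, 9.59-fold from 29725559 and 3.54-fold from 29727984. To the left the nearest summit was 55064 bp away, in a peak of 8.28-fold from 29626671 to 29627848.

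The surroundings were dense in peaks close to the pair and less so further out, with many peaks above 10-fold. All of chromosome 9 had 79.9 peaks per Mb and its central zone 57.0. Within 10 kb of the middle of the pair the density was 300 per Mb, which rests on 6 peaks with the pair included. Within 50 kb of the middle of the pair there were 10 peaks, and the 8 others had a median fold of 9.37. Within 100 kb there were 20 peaks, 100 per Mb, and the other 18 had a median fold of 7.93, with 4 of them above 10-fold. Within 250 kb the density was 70 per Mb and the median of the rest 6.28-fold, and within 1000 kb it was 76 per Mb and 4.48-fold. Of the 150 other peaks within 1000 kb, 27 passed 10-fold, or 18.0%, against 9.23% of all peaks and 10.3% of the central peaks of chromosome 9. Of these 27, 3 were above 50-fold. In full megabases of chromosome 9, peaks above 10-fold ran from 1 of 46, from 27000001, to 7 of 35, from 36000001. In the megabase of the pair, from 29000001, they were 15 of 75. This share was not computed around the strongest peaks of the other chromosomes. The median background of the 150 other peaks was 5.77 fragments, against 6.11 over all of chromosome 9. Around the strongest peaks of the other chromosomes, the median fold of peaks within 50 kb ran from 3.21 on chromosome 5 to 7.46 on chromosome 8, and around that of chromosome 9, with the second member of the pair included, it was 9.59. These medians rest on 2 to 12 peaks each.

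**Figure D4:**
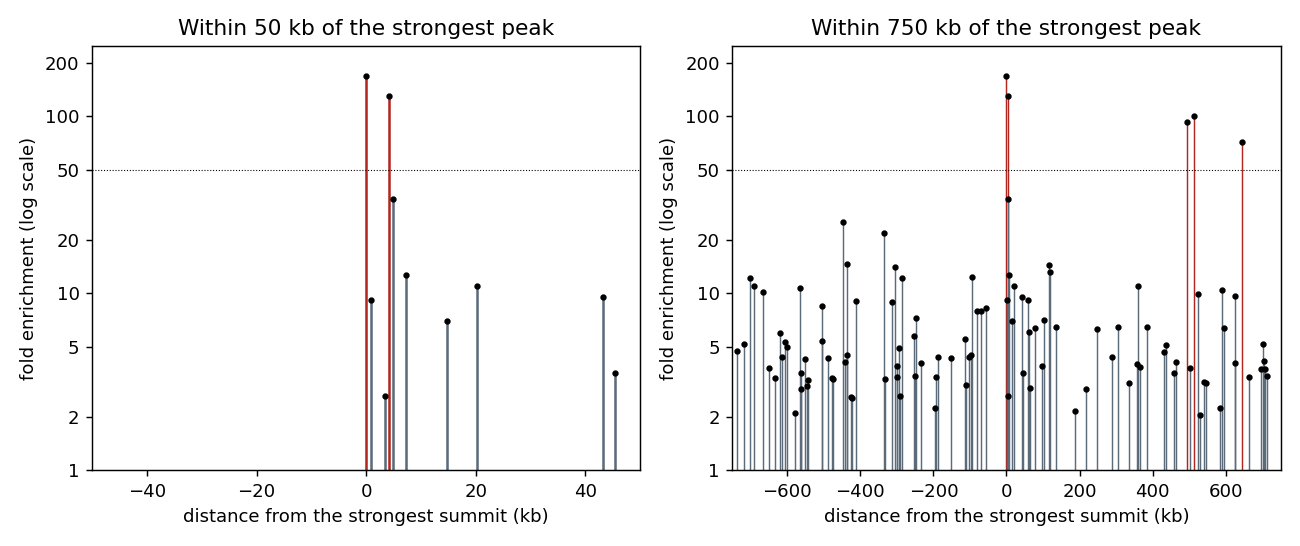
Fold enrichment (log scale) of SlWUS peaks against distance from the strongest summit of chromosome 9, within 50 kb (left) and 750 kb (right), with peaks above 50-fold in red and a dotted line at 50-fold. The left side is empty within 50 kb, and on the right 3 more peaks above 50-fold stand within 645 kb.

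A second group of very strong peaks lay to the right of the pair. The peak from 30176047 to 30176525 was 93.2-fold (86.0 to 101) with 621 fragments, and the one from 30196384 to 30196875 was 101-fold (93.0 to 110) with 585 fragments. Their summits were 20331 bp apart and their order in fold is not resolved by these intervals. The peak from 30327828 to 30328791 was 71.7-fold with 363 fragments over the lowest background, 4.08, and at 964 bp it was wider than the other peaks above 50-fold. These 3 and the pair lay within 645 kb, and they make up 5 of the 14 peaks above 50-fold on chromosome 9, or 35.7%. Chromosome 1 likewise had up to 5 such peaks within 1 Mb, among 25, and the other chromosomes had up to 2 or 3. The gene or repeat at these positions was not analysed here, since no SL4.0 annotation or sequence was used.

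The remaining peaks among the 12 strongest were scattered. They lay at 49667758 to 49668281 (77.2-fold, 489 fragments), at 43326849 to 43327365 (75.4-fold, 411), at 10740255 to 10740742 (74.0-fold, 537) and at 2971338 to 2971830 (72.3-fold, 530). Then followed 26423371 to 26423871 (61.8-fold, 400), 37700281 to 37700758 (56.4-fold, 359) and 14467241 to 14467660 (56.2-fold, 290). The counting intervals of the first 4 of these overlap with each other, as do those of the last 2, so their order is not resolved. The interval of the 61.8-fold peak, 55.9 to 68.1, overlaps with those of the last 2. It also overlaps with those of the 74.0-fold peak (67.9 to 80.5) and the 72.3-fold peak (66.3 to 78.8). The 74.0-fold peak lay in a megabase that held only 37 peaks.

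A weaker pair resembled the strong one. Peaks from 11313361 to 11313817 and from 11318590 to 11319060 had 48.5-fold and 48.3-fold with 370 and 359 fragments, and their summits were 5220 bp apart. They fall just short of the 50-fold limit used above. Above 40-fold, chromosome 9 held 26 peaks (0.422% of all peaks pass this limit) and 2 neighbouring pairs within 10 kb, and no other chromosome had more than 1. At 20-fold the picture was not distinct: 5 neighbours within 10 kb among 112 peaks of chromosome 9, or 4.46 per 100 peaks, against 1.53 to 5 per 100 on the others. The 40-fold limit was chosen after these values were seen.

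The 3 most crowded 20 kb windows lay near the ends. A window away from them, from 11820001 to 11840000 at 17.3% of the span, held 10 peaks. So did one in the right distal zone, from 65040001 to 65060000. From 66000001 to 66020000 there were 12 peaks, with neighbouring summits a median of 1229 bp apart and 21.4% of the window covered. They were between 2.49-fold and 45.5-fold, with a median of 4.31, and 3 of them passed 10-fold. The strongest, from 66011032 to 66011488, had 303 fragments (45.5-fold) and was followed by peaks of 18.4-fold and 10.5-fold. The window before held 3 peaks and the window after held 0.

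The 2 windows with 11 peaks differed from each other in strength. From 64760001 to 64780000 there were 11 peaks, a median of 1538 bp apart, between 3.08-fold and 42.0-fold, with a median of 4.94 and a median pileup of 32 fragments. Its strong peaks also stood together: 9.76-fold, 42.0-fold from 64776193 to 64777240 with 261 fragments, 11.8-fold and 16.1-fold were the last 4 summits. From 3640001 to 3660000 there were 11 peaks, a median of 1214 bp apart, and all were weak, from 2.504-fold to 5.21-fold, with a median of 3.36 and a median pileup of 24 fragments. Counting intervals of these folds overlap, for example 1.48 to 4.06 for the 2.52-fold peak and 3.61 to 7.29 for the 5.21-fold one. Median background was 5.93, 5.68 and 6.11 fragments in the windows from 66000001, 64760001 and 3640001, within the range of chromosome 9. A crowded window could therefore hold strong peaks or none.

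**Figure D5:**
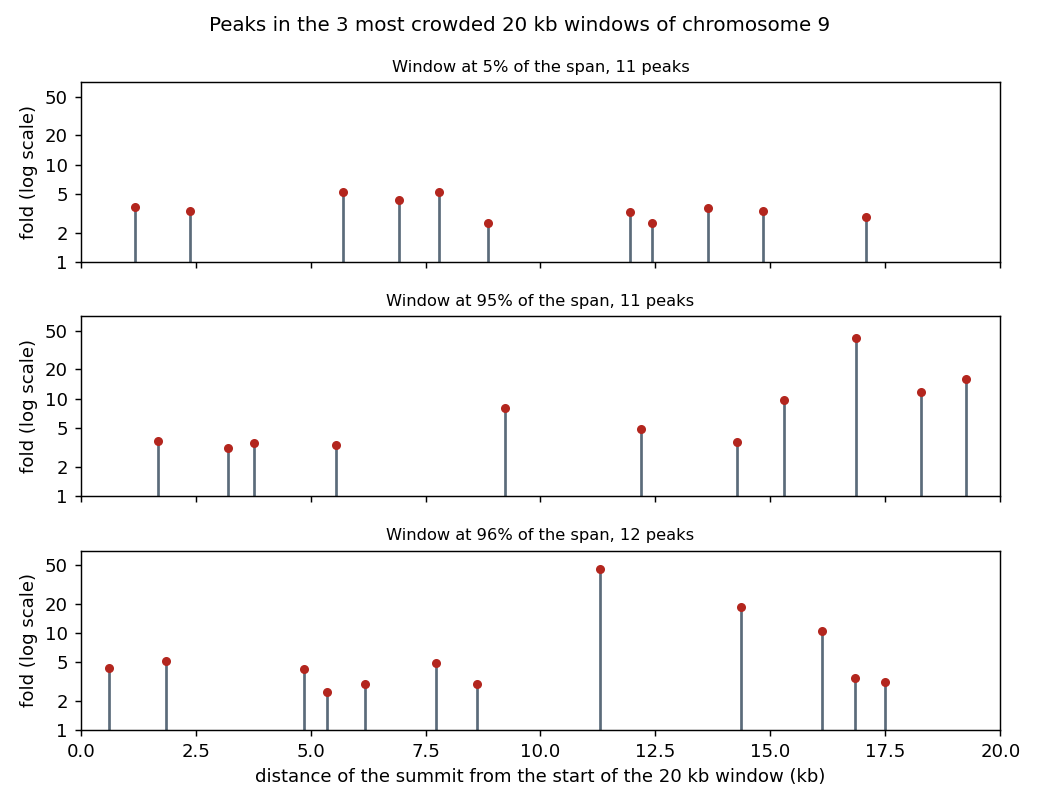
Fold enrichment (log scale) of each peak against the distance of its summit from the start of the window, for the 3 most crowded 20 kb windows of chromosome 9. The window with 12 peaks and one of those with 11 each hold a peak above 40-fold followed by weaker ones, and the window near the left end holds no peak above 5.21-fold.

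On the 100 kb scale, the 5 fullest windows of chromosome 9 were all in the right distal zone. They held 32 peaks from 65600001 to 65700000, 31 from 66700001 to 66800000, 29 from 65000001 to 65100000, 27 from 64800001 to 64900000 and 26 from 62200001 to 62300000. The fullest held 32, against 24 to 30 in the fullest windows of the other chromosomes on the same grid. Its median fold was 5.15 with a highest value of 19.8, and 5 of its 32 peaks passed 10-fold. In the other 4 the medians ran from 3.69 to 4.53. The median window of chromosome 9 held 7 peaks (quartiles 4 and 11), and 35 of its 684 windows, or 5.12%, were empty, against 1.99% to 5.56% on the others. Of the 3423 windows of 20 kb, 13 held at least 9 peaks, against 2 to 12 on the others, which differ in length. Chromosome 2, with 11 of 2666, had a larger share of such windows. The fullest 20 kb window of chromosome 11 held 12 peaks, as many as that of chromosome 9.

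Some stretches of chromosome 9 had no peak at all. The longest was 627288 bp, from 19632390 to 20259677, and the next 619114 bp, from 55528093 to 56147206. They ranked 5 and 6 among such stretches of the 12 chromosomes. A stretch of 446063 bp followed, from 45498434 to 45944496, then 279843 bp from 6311408 to 6591250 and 248544 bp from 20886162 to 21134705. The stretch from 6311408 lies in the left distal zone, where the density fell. Stretches of at least 100 kb numbered 54 on chromosome 9, against 23 to 56 on the others, and took up 13.1% of its span, against 6.57% to 12.6% on the others. Of the 54, 28 were centred in the central zone and 4 in the distal zones.

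The 2 longest stretches had unlike borders. Beside the one from 19632390, 13 peaks lay in the 500 kb to its left and 29 in the 500 kb to its right, with a median fold of 5.60. To the left of the one from 55528093 there were 20 peaks in 500 kb, and to its right 66, with a median fold over both sides of 4.86. Within 1 Mb the first stretch had 48 peaks to its left and 35 to its right, and the second 50 and 105. The lean of the first thus changed side with the distance counted. Another stretch without a peak, 220187 bp from 19398522 to 19618708, lay to the left of the first. The dense right part of chromosome 9 begins at the right border of the second stretch. The 5 megabases from 56000001 to 61000000 held 541 peaks, or 108 per Mb (99.3 to 118). The peaks that bound the first stretch were 9.02-fold with 75 fragments and 6.50-fold with 32, and those that bound the second 3.10-fold with 17 and 5.52-fold with 27. The peak list does not say where reads can be placed, so missing binding and missing reads cannot be told apart.

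Neighbouring peaks of chromosome 9 were a median of 6044 bp apart, against 5148 to 6389 bp on the others. In the distal zones the median was 3817 bp and in the central zone 9877 bp, the widest of the 12 central zones, which otherwise ran from 5538 to 8930 bp. Leaving out distances below 500 bp, 22.4% fell short of 2000 bp (exact binomial 95% interval 21.3 to 23.6), against 21.0% to 25.0% on the others. This share was 30.2% in the distal zones of chromosome 9, against 23.5% to 31.9% on the others, and 15.05% in its central zone, against 16.4% to 22.9%. A lower density in itself lowers this share, and its part in the low central value was not tested. The central zone of chromosome 11, with 57.9 peaks per Mb against 57.0 on chromosome 9, had a share of 17.6%. Distances of 100000 bp or more made up 0.987% on chromosome 9, against 0.472% to 0.960% on the others.

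The number of peaks over a high background did not set chromosome 9 apart. A background of at least 2 times the median of all peaks was found at 6 peaks, or 0.110% (exact binomial 95% interval 0.0403 to 0.239), against 0.225% of the peaks of the 12 chromosomes and 0.0226% to 0.406% on the others. The highest value, 14.8 fragments, was at a 3.35-fold peak from 47917684. Another 2 peaks had 14.4 fragments, a 4.48-fold one close by, from 47924498, and a 13.7-fold one far away, from 20807255, with a pileup of 210. The widest peaks were 2527 bp, from 20382292 to 20384818 at 16.1-fold, and 2174 bp, from 20404352 to 20406525 at 19.1-fold. Both lie to the right of the longest stretch without a peak, which ends at 20259677, but do not border it. The next widest, 1867 bp from 29086 to 30952 at 35.3-fold, is the first peak of chromosome 9.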

How the data were processed

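DAP-seq peaks of 1 SlWUS library were analysed; the input library entered only through the authors' peak calling. The submitters' processing notes name Bowtie2 2.2.5 (read aligner), MACS2 2.1.2 (peak caller) and ChIPseeker (peak annotation); their settings, the handling of duplicate reads, the use of the input and the total depth are not given in the sources available. The deposited list gives, per peak, the authors' fold ratio, −log10 p and −log10 q from the peak caller. The deposited score repeats the −log10 q, multiplied by 10 and truncated, for 100% of peaks and entered no result. Positions are SL4.0, from the sequence names, counted from 1.

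Pileup and background were solved from fold, (pileup + 1)/(background + 1), and the Poisson upper tail beyond the pileup; all 65452 peaks gave a whole pileup within 0.001 of the −log10 p. The depth at a summit is this pileup, and its exact Poisson interval gives the precision. The span of a chromosome ends at its last peak. Zone ratios add 0.5 to each count of peaks. A peak belongs to the window that holds its summit. Intervals of ratios and shares are exact binomial (Clopper-Pearson) 95% intervals. They cover counting error only, since it is not known whether each fragment is a separate molecule.

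The stretches and peaks described were chosen with earlier results of these data known, and no p-value was computed. Peaks named are the 12 with the highest fold, all within 50 kb of the strongest pair, the 5 fullest 100 kb windows and the 5 longest stretches without a peak; 35 windows of 100 kb tied at 0 peaks, so the emptiest are given as stretches. Others were chosen after their values were seen: the runs of megabases, the crowded 20 kb windows, the 48-fold pair and the extremes of width and background. Alternatives changed the q limit, zones, windows, merging of summits and fold measure. No gene is named, because SL4.0 gene models were not used here; the gene names supplied are for the assembly SLM_r2.1. Scripts were tested on simulated data. Software was scipy 1.17.1, pandas 2.3.3 and numpy 2.4.6 under Python 3.11.15, with figures from matplotlib 3.10.9.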

Additional observations from a re-analysis of the deposited data

How the results depend on the processing

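Chromosome 9 ranked 11 of 12 in density, and 10 of 12 with a q limit of 10 on the −log10 scale. Its density was 63.6 peaks per Mb with that limit at 5, 38.9 at 10, and 61.6 with summits closer than 2000 bp counted as 1. The ratio of distal to central density stayed above 1 under every alternative run and ranked 1 to 3. It was 2.65 with outer zones of 5%, 1.92 with 20%, 2.21 at a −log10 q of 10, 1.99 with summits within 2000 bp counted as 1, and 2.73 by bases covered. Leaving stretches of 100 kb or more without a peak out of the zone lengths, an alternative chosen after seeing the data, gave 2.16 on chromosome 9, against 0.992 to 2.08 on the others. Median fold was 4.93 and 6.29 at the q limits of 5 and 10, which remove weak peaks by construction, and 4.89 without the added 1. The log2 difference between distal and central peaks was 0 for pileup in place of fold. Peaks above 20-fold numbered 112, above 100-fold 3, and above 50-fold without the added 1 22. Without the 1 Mb to each side of the strongest peak of each chromosome, also chosen after seeing the data, 9 were left above 50-fold on chromosome 9, against 6 to 21 on the others. Short distances made up 8.00% when counted to 1000 bp, 31.7% to 3000 bp, and 18.1% at the q limit of 5. The fullest window held 20 peaks at 50 kb and 53 at 200 kb. With the 100 kb grid shifted by 50 kb it held 31, and chromosome 9 ranked 2. No paired analysis was possible because there is 1 library per group. For the same reason no replicate could be left out. Pileups near the median of 30 fragments do not resolve the order of ordinary peaks.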
